A study of Mus musculus with 6 samples.

Results

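BCL2 family genes, which decide whether the mitochondria of a cell stay intact, were examined in MLL-AF9 leukaemic progenitors with and without an induced Notch1 intracellular domain. The family was taken as 10 listed genes, and its members were chosen by the gene symbol that the platform annotation gives to each probe set. Of the 10 genes, 9 were found, with 29 of the 45101 probe sets on the array. Bax was not analysed here: the annotation table used pairs its symbol with no probe set, alone or among several symbols, and probe sets left unnamed there may still measure it.

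In both groups, cKit+ cells infected with MLL-AF9-IRES-YFP were transplanted with wild-type support marrow into irradiated wild-type recipients aged 12 weeks. The N1-IC group (n = 3 arrays) carried MLL-AF9 together with the alleles EF1αwt/lsl-N1-IC and ROSAwt/CreERT2, in which a Notch1 intracellular domain sits behind a stop cassette in the EF1α locus. The WT group (n = 3 arrays) carried MLL-AF9 together with EF1αwt/wt and ROSAwt/CreERT2, so it also had the fusion gene and the tamoxifen-dependent Cre recombinase. Both groups received 2 tamoxifen injections of 0.2 mg per g body weight, starting 4 weeks after transplantation, and LGMP, marrow cells sorted as positive for YFP, CD34, FcgRII/III and cKit and negative for Sca1 and lineage markers, were collected 6 days after the last one. The labels give female for every N1-IC sample and male for every WT sample, so genotype and sex cannot be told apart in any value below. They do not say whether a sample is 1 recipient or a pool, and p-values therefore measure the spread between these samples, which may be technical.

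The BCL2 family controls the mitochondrial route of cell death. Survival proteins such as BCL2, MCL1 and BCL-XL hold back the pore-forming proteins BAX and BAK, and BH3-only proteins such as BIM, BID, BAD, PUMA and NOXA carry stress signals that release or activate the pore formers. In myeloid leukaemia the survival members are known for keeping malignant progenitors alive and are drug targets.

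Promoter sequences are shown for 4 members, to let a reader see motifs of factors that are known to act on this family or on the Notch pathway. They come from RefSeq (GRCm38.p6), are read 5′ to 3′ on the strand of the gene, and end before the transcription start. Capitals mark every match, on either strand, of the motif named beside each gene. For Bcl2 this is the GC-rich string CCCGCC, and other letters of the GC box were not searched. For Bcl2l11 and Bbc3, known targets of FOXO factors, it is the FOXO core TGTTTAC. For Bad it is the core TGGGAA bound by RBPJ, the DNA-binding partner of the Notch1 intracellular domain.
Bcl2, chr1:106714291-106714540, minus strand: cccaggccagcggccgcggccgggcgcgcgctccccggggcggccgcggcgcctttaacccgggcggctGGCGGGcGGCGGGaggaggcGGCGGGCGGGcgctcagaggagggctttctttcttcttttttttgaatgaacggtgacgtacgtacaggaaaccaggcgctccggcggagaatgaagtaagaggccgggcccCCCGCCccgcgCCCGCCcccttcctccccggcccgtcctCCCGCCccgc
Bcl2l11, chr2:128125788-128126037, plus strand: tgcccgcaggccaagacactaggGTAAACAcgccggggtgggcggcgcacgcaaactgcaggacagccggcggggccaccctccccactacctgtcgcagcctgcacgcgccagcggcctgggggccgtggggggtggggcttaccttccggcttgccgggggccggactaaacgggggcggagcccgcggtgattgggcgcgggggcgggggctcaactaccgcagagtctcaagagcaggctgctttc
Bbc3, chr7:16310086-16310115, plus strand: ggcgggttTGTTTACaaacaatggggttcg
Bad, chr19:6941735-6941764, plus strand: actaccatTTCCCAcgcttagaTTCCCAaa

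The 250 bases before the Bcl2 start were 74.8% G or C and held 7 matches of CCCGCC, the nearest beginning 10 bases before the start. Of 15 promoter windows of members, 11 held CCCGCC, against 32.5% of all 32851 windows. Windows on chromosome 18, where Pmaip1 lies, were left out of the 15 but not out of the 32851. Some windows of the same gene overlap, so the 15 are not independent. The FOXO core lay in 2 of the 15 windows and in 3.2% of all windows, beginning 227 bases before the first Bcl2l11 start and 167 bases before 1 of 3 annotated Bbc3 starts. The RBPJ core was found in 3 of the 15 windows, 2 of Bad and 1 of Bax, against 21.6% of all windows. These letters were not found in the windows of Bcl2, Mcl1, Bcl2l1 or Bcl2l11. Each motif was searched on both strands, and a match is only a match of letters.

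Values are log2 of the deposited linear intensities, and array medians lay between 5.63 and 5.67. Of the 29 member probe sets, 17 lay above the upper quartile of the array on all 6 arrays and 1, of Bcl2l1, lay below the lower quartile on all 6. Of the gate markers, Kit was at 10.23 to 10.76 and Fcgr3 at 12.60 to 13.12 over the 6 arrays. Cd34 measured 11.04, 10.05 and 11.28 in N1-IC, against 11.69, 11.52 and 11.33 in WT, lower on every N1-IC array, with a log2 fold change of -0.72 ± 0.33 (limma adjusted p = 0.644). The Notch target Nrarp, by its brighter probe set, measured 8.01, 9.74 and 11.33 on the N1-IC arrays, against 7.22, 6.96 and 6.41 on the WT arrays. By its dimmer probe set Nrarp measured 4.69, 6.98 and 8.52 in N1-IC, against 5.78, 5.02 and 3.57 in WT. The groups overlapped there, with N1-IC replicate 1 below WT replicates 1 and 2. Hes1, another Notch target, measured 6.44, 6.80 and 7.88 in N1-IC, against 6.12, 5.52 and 5.87 in WT. Xist, the RNA that coats the inactive X chromosome, measured between 12.73 and 12.82 in N1-IC, against 5.64, 10.70 and 5.42 in WT. The Y-linked Eif2s3y, by its brighter probe set, measured 2.94, 3.24 and 3.46 in N1-IC, against 11.31, 10.34 and 11.26 in WT. WT replicate 2 thus had the Y-linked RNA of its male label and, unlike the other WT arrays, an Xist signal as well, and whether that sample is a mixture was not tested. Its 12 measured erythroid markers, of 14 listed, averaged 9.72, against 6.05 to 7.05 on the other 5 arrays. WT replicate 1 stood apart by its 11 measured late granulocyte markers, of 14 listed, which averaged 7.51, against 9.79 to 10.39 elsewhere. The ranges given below for fold changes with single arrays left out include the fits without each of these arrays.

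No member probe set passed an adjusted p under 0.05 in the limma fit over all probe sets, in which 4 of 45101 (0.00887%) passed. The check genes Nrarp (brighter probe set), Hes1 and Xist, with the values given above, did not pass either (limma adjusted p = 0.639 each). Eif2s3y passed by its brighter probe set (limma adjusted p = 0.00201). Missing the threshold here thus does not show that a gene was unchanged. Before adjustment 7 of the 29 (24.1%) had a p under 0.05, against 7.69% of all probe sets (3.57% higher and 4.13% lower in N1-IC), and 4 of those 7 belong to the same gene, Bcl2. Every N1-IC array lay above every WT array for 4 member probe sets (13.8%), against 7.39% of all. For 3 of them (10.3%) every N1-IC array lay below every WT array, against 7.02% of all. The median log2 fold change (N1-IC minus WT) was 0.063 over the members and 0.0024 over all probe sets, and the median of its size was 0.28 and 0.14. Probe sets annotated to 1 gene can share transcripts and are not taken as independent, so these shares describe the 29 measurements and not 29 genes.

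**Figure D1:**
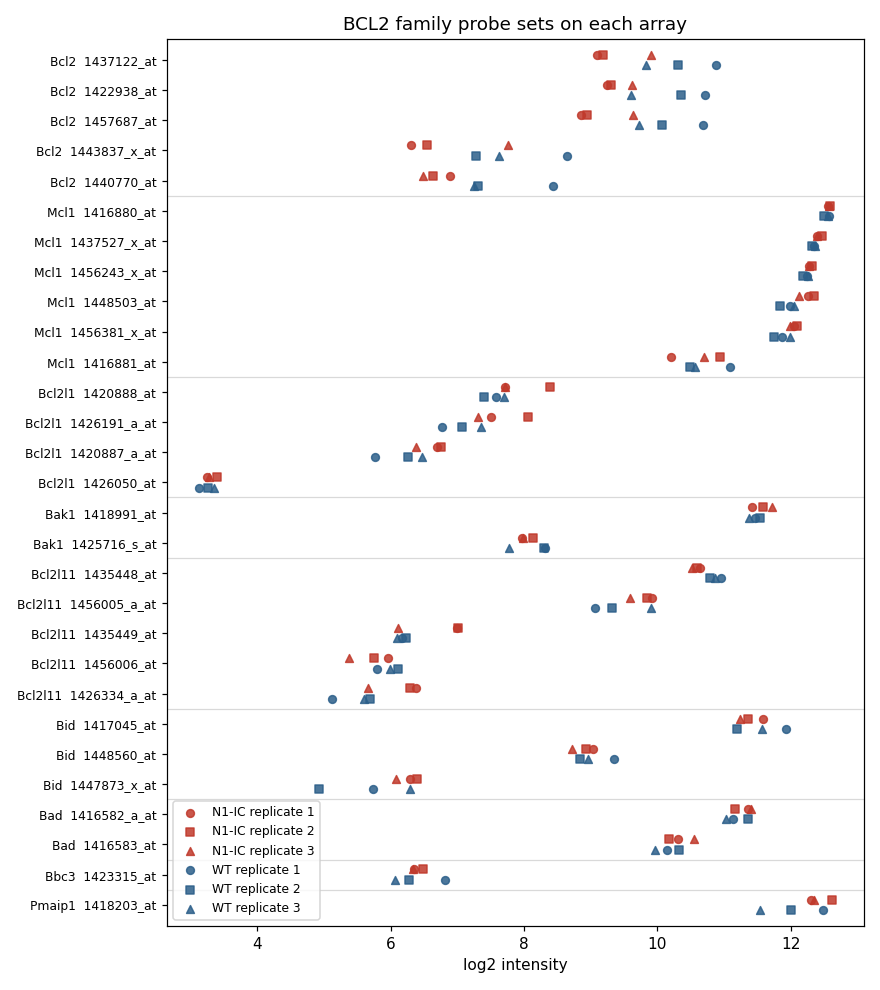
Log2 intensity of each of the 29 BCL2 family probe sets on every array, with N1-IC arrays in red above WT arrays in blue on each line and symbols for replicates 1, 2 and 3. The points of Bcl2 spread most among the survival genes, while 5 of the 6 Mcl1 probe sets sit between 11.75 and 12.59 on all arrays.

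Bcl2, the founding survival gene of the family, had the largest differences among the members: all 5 of its probe sets had lower means in N1-IC, with log2 fold changes of -1.02 to -0.84, which correspond to ratios of 0.49 to 0.56. None passed the adjusted threshold. The brightest, 1437122_at, measured 9.09, 9.18 and 9.91 in N1-IC replicates 1, 2 and 3, against 10.88, 10.30 and 9.83 in WT replicates 1, 2 and 3. N1-IC replicates 1 and 2 lay below all WT arrays, while N1-IC replicate 3 lay just above WT replicate 3, so the groups overlapped. Its means were 9.39 ± 0.45 in N1-IC and 10.34 ± 0.52 in WT (SD, n = 3 each), a log2 fold change of -0.94 ± 0.33 (standard error) with a limma unadjusted p of 0.0281 and an adjusted p of 0.639.

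Probe set 1457687_at of Bcl2 measured 8.85, 8.94 and 9.64 in N1-IC, against 10.68, 10.07 and 9.73 in WT. Here the groups did not overlap, and the log2 fold change was -1.02 ± 0.31 (limma unadjusted p = 0.0166, adjusted p = 0.639). Probe set 1440770_at was lower on every N1-IC array as well, at 6.89, 6.64 and 6.49, against 8.43, 7.31 and 7.24 in WT. The other 2 probe sets, 1422938_at and 1443837_x_at, overlapped between the groups, with log2 fold changes of -0.84 ± 0.29 and -0.98 ± 0.50. WT replicate 1 had the highest Bcl2 value by each of the 5 probe sets. The lowest value was on N1-IC replicate 1 for 4 probe sets and on N1-IC replicate 3 for 1440770_at. By the mean of its probe sets, Bcl2 was at 8.07, 8.12 and 8.68 in N1-IC, against 9.87, 9.06 and 8.81 in WT.

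The size of the Bcl2 difference depended on single arrays. Without WT replicate 1 the log2 fold change of 1437122_at was -0.67 (limma adjusted p = 0.804), without WT replicate 2 it was -0.96 (0.808) and without WT replicate 3 it was -1.20 (0.348). Without N1-IC replicate 3 it was also -1.20. Over the 5 probe sets it ranged from -0.75 to -0.58 without WT replicate 1, from -1.26 to -0.77 without WT replicate 2 and from -1.23 to -1.09 without WT replicate 3. Against WT replicate 3 alone, a choice made after the data were seen, the 5 values ran from -0.75 to -0.22. All 5 stayed below 0 in each of these fits. None passed the threshold in any of them.

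Markers of other cell types moved between arrays beside Bcl2. WT replicate 1, with the highest Bcl2, had the lowest values of granulocyte genes, such as Ngp at 8.41, against 12.54 to 13.07 on the other 5 arrays, and Mmp9 at 4.14, against 7.01 to 9.27. Summed intensities of the late granulocyte list ran from 51990 to 69530 on the N1-IC arrays, against 8407 to 63580 on the WT arrays. Summed erythroid intensities ran from 4369 to 7791 on the N1-IC arrays, against 4446 to 28040 on the WT arrays, with the erythroid factor Klf1 at 10.04 in WT replicate 2 and at 5.46 to 6.25 elsewhere. The 9 measured mast cell and basophil markers, of 10 listed, summed to 3123 to 6021 in N1-IC, against 3917 to 8829 in WT. Among the defining mast cell and basophil genes, Cpa3 was at 6.16 to 8.43 in N1-IC, against 5.86 to 8.98 in WT, and Mcpt8 at 9.79 to 11.35 in N1-IC, against 9.86 to 11.17 in WT. Gata1 and Ltf, of the erythroid and granulocyte lists, were highest on WT replicate 2, at 9.39 and 8.84. Cd34 was also lower on every N1-IC array, as given above. No marker was listed at 0, since the deposited values have none. Gata2, a transcription factor gene of stem and mast cells on the mast cell and basophil list, was at 9.75, 10.02 and 11.64 in N1-IC, against 12.53, 11.68 and 11.26 in WT. Its highest value was on WT replicate 1 and its lowest on N1-IC replicate 1, as for 4 of the Bcl2 probe sets. The mean of the 9 measured genes of that list had another order, highest on WT replicate 2 (7.98) and lowest on WT replicate 3 (6.41). The part of these cell markers in the Bcl2 values was not tested, and in bulk RNA fewer cells of a type and less RNA per cell cannot be told apart.

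**Figure D2:**
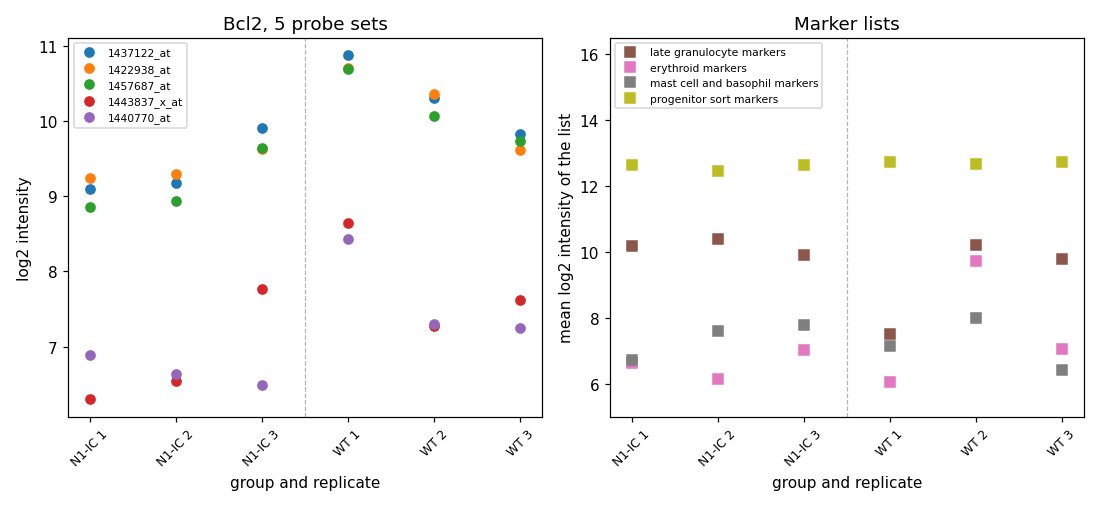
Left, log2 intensity of the 5 Bcl2 probe sets on each array; right, mean log2 intensity of 4 marker lists on the same arrays, N1-IC left of WT. WT replicate 1 carries the highest Bcl2 values and the lowest late granulocyte mean (7.51), and WT replicate 2 carries the highest erythroid mean (9.72).

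The neighbours of Bcl2 were sought among the 9097 genes whose mean reached the median of all. The genes whose pattern over the 6 arrays was most like that of Bcl2 were Ece1, Gramd4 and Nxpe3. Their centred log2 values differed from those of Bcl2 by a root mean square of 0.12, 0.12 and 0.13, where Bcl2 itself varied by 0.62 about its mean. Ece1, which encodes endothelin-converting enzyme, measured 9.21, 9.05 and 9.82 in N1-IC, against 11.00, 10.14 and 9.72 in WT. For Bcl2l1 the closest patterns were those of Cep131, Zfp850 and Stx7 (0.078, 0.084 and 0.091), and for Mcl1 those of Rab11b, Kctd20 and Ddx3x (0.011, 0.014 and 0.015).

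Mcl1, a short-lived survival protein on which haematopoietic progenitors are known to depend, had nearly level values. Its brightest probe set, 1416880_at, measured 12.57, 12.59 and 12.57 in N1-IC, against 12.57, 12.50 and 12.55 in WT, with a log2 fold change of 0.04 ± 0.08 and a 95% interval of -0.17 to 0.24. This interval leaves out changes as large as those of the Bcl2 probe sets. The largest Mcl1 difference was that of 1448503_at, at 12.26, 12.34 and 12.12 in N1-IC, against 11.98, 11.84 and 12.05 in WT. Every N1-IC array was above every WT array, with a log2 fold change of 0.28 ± 0.11 (limma unadjusted p = 0.0419, adjusted p = 0.644). Probe sets 1437527_x_at and 1456243_x_at also did not overlap, although their log2 fold changes were only 0.07 and 0.06. The remaining 1456381_x_at and 1416881_at overlapped, and the dimmest, 1416881_at, had the opposite sign at -0.10 ± 0.24, which turned to 0.10 without N1-IC replicate 1 and to 0.087 without WT replicate 1.

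Bcl2l1 encodes BCL-XL and, by other splicing, a shorter form that promotes death, and the probe sets are not assigned to either form here. All 4 probe sets had higher means in N1-IC and none passed. Probe set 1420888_at measured 7.72, 8.39 and 7.72 in N1-IC, against 7.58, 7.39 and 7.70 in WT. The groups did not overlap, but N1-IC replicates 1 and 3 exceeded WT replicate 3 only slightly, and the log2 fold change of 0.38 ± 0.21 (limma adjusted p = 0.667) was 0.16 without N1-IC replicate 2. For 1426191_a_at, at 7.50, 8.06 and 7.31 in N1-IC, against 6.77, 7.07 and 7.36 in WT, the log2 fold change was 0.56 ± 0.24 (limma adjusted p = 0.644) and 0.34 without N1-IC replicate 2, and the groups overlapped because N1-IC replicate 3 lay below WT replicate 3. Probe set 1420887_a_at measured 6.70, 6.75 and 6.37 in N1-IC, against 5.77, 6.27 and 6.46 in WT, with a log2 fold change of 0.44 ± 0.21 (limma adjusted p = 0.645) that was 0.24 without WT replicate 1. N1-IC replicate 2 was the highest array for all 4 Bcl2l1 probe sets. Probe set 1426050_at lay at 3.12 to 3.39 on all arrays, below the lower quartile, and whether it exceeds background is unknown.

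**Figure D3:**
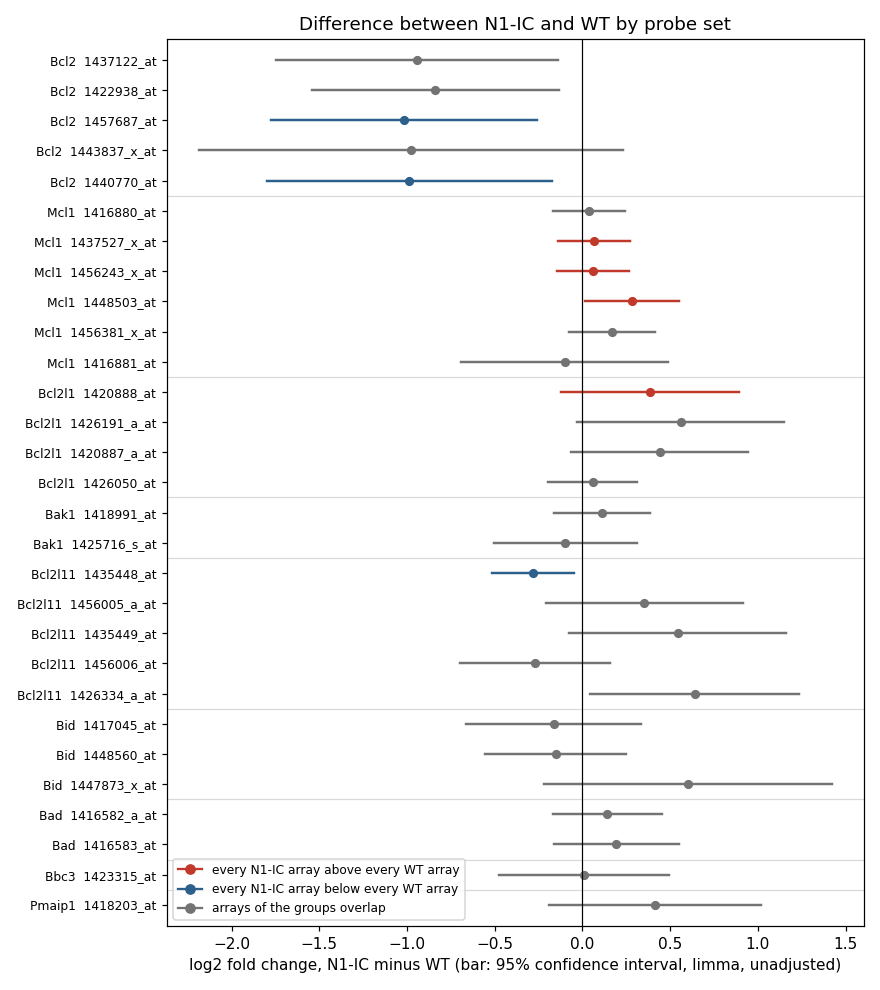
Log2 fold change, N1-IC minus WT, of each probe set with its unadjusted 95% confidence interval from limma; colours show whether the arrays of the groups overlap. The 5 Bcl2 probe sets lie between -1.02 and -0.84, the 4 of Bcl2l1 lie above 0, and those of Bcl2l11 lie on both sides of 0.

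The pore-forming member Bak1 differed by less than the spread between arrays. Its brighter probe set, 1418991_at, measured 11.42, 11.58 and 11.72 in N1-IC, against 11.47, 11.53 and 11.38 in WT, a log2 fold change of 0.11 ± 0.11 with an interval of -0.16 to 0.39. The dimmer 1425716_s_at had a log2 fold change of -0.10 ± 0.17, which ran from -0.27 without WT replicate 3 to -0.0071 without WT replicate 1.

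Among the BH3-only genes, Bcl2l11, which encodes the death activator BIM, gave answers that differed with the probe set. The brightest, 1435448_at, measured 10.65, 10.59 and 10.51 in N1-IC, against 10.95, 10.78 and 10.86 in WT. Every N1-IC array was below every WT array, with a log2 fold change of -0.28 ± 0.096 (limma unadjusted p = 0.0250, adjusted p = 0.639). In contrast 1426334_a_at measured 6.39, 6.29 and 5.66 in N1-IC, against 5.13, 5.69 and 5.60 in WT, with a log2 fold change of 0.64 ± 0.25 (unadjusted p = 0.0397, adjusted p = 0.640). N1-IC replicate 3 lay within the WT range there.

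Of the other Bcl2l11 probe sets, 1456005_a_at and 1435449_at had higher means in N1-IC (0.35 ± 0.23 and 0.54 ± 0.26), and 1456006_at a lower one (-0.27 ± 0.18). With single arrays left out, 1456005_a_at ran from 0.17 without WT replicate 1 to 0.59 without WT replicate 3. Likewise 1435449_at reached 0.84 and 1456006_at came to -0.11 without N1-IC replicate 3. The distance to 1435448_at within an array (probe set minus 1435448_at) separated the groups for 1456005_a_at, 1435449_at and 1426334_a_at, with N1-IC means higher by 0.64, 0.83 and 0.92. All 3 distances share 1435448_at, itself lower on every N1-IC array, so they are not independent and favour such a separation. An exact two-sided permutation test gave p = 0.1 for each of these 3, the smallest that 3 against 3 arrays allow, and p = 0.8 for 1456006_at (adjusted over the 4 pairs, p = 0.133 and p = 0.8). These probe sets were annotated to the same gene, and which transcript or exon each covers was not analysed here. The mean over the 5 probe sets had a log2 fold change of 0.20, so a statement on the gene as a whole would turn with the choice of probe set.

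Pmaip1, which encodes the MCL1-binding protein NOXA, measured 12.31, 12.62 and 12.35 in N1-IC, against 12.49, 12.01 and 11.53 in WT. Its groups overlapped through WT replicate 1, and the log2 fold change of 0.41 ± 0.25 (limma adjusted p = 0.683) was 0.65 without WT replicate 1, 0.18 without WT replicate 3 and 0.89 without WT replicates 1 and 2. Bbc3, which encodes the p53-induced activator PUMA, was at 6.35, 6.48 and 6.33 in N1-IC, against 6.81, 6.27 and 6.06 in WT. Its log2 fold change was 0.0098 ± 0.20, with an interval of -0.48 to 0.50 that still admits changes of some size. For Bbc3 the N1-IC arrays spanned 0.15, against 0.75 for the WT arrays, and for Pmaip1 0.31 in N1-IC, against 0.96 in WT.

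Bid, which encodes the BH3 protein cleaved by caspases downstream of death receptors, had a brightest probe set, 1417045_at, at 11.59, 11.35 and 11.24 in N1-IC, against 11.92, 11.19 and 11.56 in WT. Its log2 fold change of -0.16 ± 0.21 became 0.018 without WT replicate 1 and -0.35 without WT replicate 2. Probe set 1448560_at measured 9.03, 8.93 and 8.72 in N1-IC, against 9.35, 8.84 and 8.95 in WT, with a log2 fold change of -0.15 ± 0.17 that came to -0.00055 without WT replicate 1. The dim 1447873_x_at had the opposite sign (0.60 ± 0.34), with WT replicate 2 lowest at 4.93, and its value was 0.24 without WT replicate 2 and 0.92 without WT replicate 3. Bad, whose protein is held inactive by phosphorylation under growth factor signalling, had higher means in N1-IC by both probe sets, by 0.14 ± 0.13 for 1416582_a_at and 0.19 ± 0.15 for 1416583_at. The brighter, 1416582_a_at, measured 11.36, 11.17 and 11.40 in N1-IC, against 11.13, 11.35 and 11.02 in WT. With single arrays left out the Bad values ran from 0.070 without WT replicate 3 to 0.24 without WT replicate 2 for 1416582_a_at, and from 0.089 without N1-IC replicate 3 to 0.28 without WT replicate 2 for 1416583_at. None of the 5 Bid and Bad probe sets separated the groups.

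**Figure D4:**
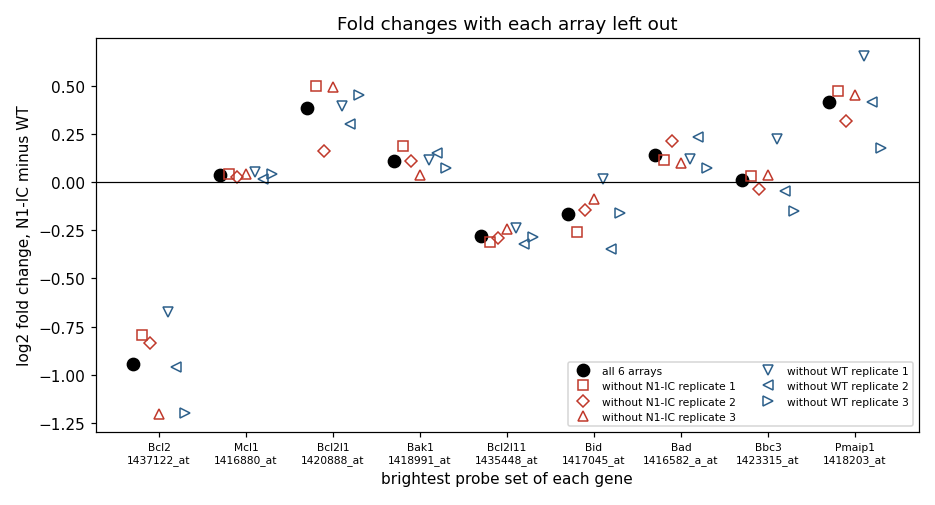
Log2 fold change, N1-IC minus WT, of the brightest probe set of each of the 9 genes with all 6 arrays (filled) and with each array left out (open). Bcl2 stays below 0 throughout, between -1.20 and -0.67, while Bid and Bbc3 cross 0.

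Over the 29 member probe sets the median range between arrays was 0.33 in N1-IC and 0.53 in WT, and over all probe sets it was 0.28 in N1-IC and 0.35 in WT. The difference between these ranges was not tested. By role, the 15 survival probe sets had 9 higher and 6 lower means in N1-IC, and the 12 BH3-only probe sets had 8 higher and 4 lower. Over all 45101 probe sets 22761 had higher and 22340 lower means. The 6 lower survival probe sets were the 5 of Bcl2 and 1 of Mcl1, while all 4 of Bcl2l1 were higher. These counts by role thus rest on repeated probe sets of a few genes.

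Other relatives of the family were described from a list of 16 genes, of which 12 were measured by 27 probe sets. Of these 0 passed the adjusted threshold, and 3 (11.1%) had an unadjusted p under 0.05, all lower in N1-IC, against 7.69% of all probe sets. Bcl2l13, a mitochondrial receptor of the family, measured 8.96, 8.86 and 8.85 in N1-IC, against 9.37, 9.31 and 9.35 in WT by 1424406_at, with a log2 fold change of -0.45 ± 0.088 (limma unadjusted p = 0.00191, adjusted p = 0.552). Its groups stood well apart there, while its other probe set overlapped (-0.26 ± 0.25). Bcl2l15 had a log2 fold change of -1.13 ± 0.26 at values of 3.90 to 5.56, below the array medians. The BH3-only gene Bik, at 3.68 to 6.37 by 1420362_a_at, had -1.50 ± 0.61, against -0.30 and -0.17 by its other 2 probe sets. Bmf, another BH3-only gene, had -0.76 ± 0.35 by 1454880_s_at, 0.32 ± 0.15 by 1458325_x_at and -0.058 ± 0.20 by 1422995_at.

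The mitochondrial death machinery downstream of the family was measured for 10 of 12 listed genes by 29 probe sets. Again 0 passed, and 6 (20.7%) had an unadjusted p under 0.05, 3 higher and 3 lower, against 7.69% of all probe sets. Casp9, the initiator caspase of the apoptosome, had higher values on every N1-IC array by 1437537_at (12.28, 12.58 and 12.39 in N1-IC, against 12.15, 12.13 and 12.05 in WT) and by 1426125_a_at, with log2 fold changes of 0.31 ± 0.11 and 0.39 ± 0.13 (limma adjusted p of 0.639 each). By the dim 1457816_at Casp9 had 0.080 ± 0.11, and the groups overlapped. Cycs, the gene of cytochrome c, had -0.31 ± 0.093 by 1422483_a_at and 0.17 ± 0.17 by 1456071_a_at. It had -0.12 ± 0.10 by 1422484_at and -0.27 ± 0.15 by the dim 1445484_at. Endog, a mitochondrial nuclease gene, had -0.53 ± 0.19 by 1438317_a_at and -0.44 ± 0.21 by 1421097_at. Vdac1, a channel of the outer membrane, had 0.39 ± 0.15 by 1437947_x_at. Its other 4 probe sets ran from 0.033 to 0.20, and the brightest of them, 1437192_x_at, had 0.033 ± 0.086.

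Among genes that act on family members, 16 of 17 listed were measured by 51 probe sets, of which 0 passed and 6 (11.8%) had an unadjusted p under 0.05, 1 higher and 5 lower, against 7.69% of all probe sets. Stat5b, a cytokine-activated factor known to induce survival genes, measured 5.38, 5.42 and 5.56 in N1-IC, against 6.16, 5.91 and 6.28 in WT by 1422102_a_at (log2 fold change -0.66 ± 0.13, limma unadjusted p = 0.00175, adjusted p = 0.552). Its brighter probe set had -0.21 ± 0.15. Foxo1, a FOXO factor gene, had -0.85 ± 0.23 by 1416982_at, while its other 3 probe sets ran from -0.81 to 0.17. Ddit3, a stress factor that acts on Bcl2 and Bcl2l11, had -0.75 ± 0.21 by 1443897_at and -0.21 ± 0.21 by its brighter 1417516_at. Foxo3, whose motif core stands in the Bcl2l11 and Bbc3 windows above, had log2 fold changes of -0.21 to -0.05 over its 3 probe sets. Huwe1, an X-linked ubiquitin ligase gene for MCL1, had -1.10 ± 0.31 by the dim 1444279_at and -0.08 ± 0.12 by its brightest probe set. Its remaining probe sets ran from -0.013 to 0.17.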

How the data were processed

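The authors deposited 1 linear intensity for each probe set on every array. Per the submitters' processing notes these were made with RMA; its version was not stated there. RMA corrects background, brings arrays to 1 distribution and summarises probes, so a difference is relative to the rest of the array. Per the labels' protocols, the input was 5 ng of total RNA, amplified by NuGEN Ovation and biotin-labelled. Intensities were taken to log2 with no offset. The number of arrays limits the precision.

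Probe sets were named from the platform annotation: 34958 of 45101 had 1 symbol, 932 had several and were not named, and 9211 had none. All probe sets were fitted with limma 3.58.1 under R 4.3.3 (N1-IC minus WT, no covariate, moderated by eBayes) and Benjamini-Hochberg adjustment, after a test on simulated data. Standard errors and intervals are limma's. A gene's marker value is that of its brightest probe set.

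The members and lists were chosen with earlier results of these data known. Named are all member probe sets, defining markers of 4 cell lists, check genes of sex and Notch, of each further pathway list the genes with the 4 smallest p, and for 3 survival genes the 3 genes with the nearest pattern. A few further genes and probe sets were named after their values were seen: Mmp9, Gata2, Foxo3 and the other probe sets of named genes. Alternatives were other variance models, normalizations, offsets, filters, summaries, thresholds, a replicate block, sex chromosomes left out and each array left out.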

Additional observations from a re-analysis of the deposited data

How the results depend on the processing

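In every alternative fit 0 member probe sets passed an adjusted p under 0.05, and with all arrays 0 passed at 0.1, with the smallest member adjusted p at 0.302 (Bcl2 1422938_at without WT replicate 3), and 7 passed an unadjusted p under 0.05. Of 481 recomputed member fold changes 15 changed sign, none of them of Bcl2. Part of the 481 could not change sign. A mean-variance trend, a robust prior, the replicate block and leaving out other probe sets keep the fold change as it was. The 481 thus overstate how often the direction was put to a check. Bbc3 had -0.00091 with array weights and ran from -0.15 to 0.22 as single arrays were left out. Mcl1 1416881_at ran from -0.26 to 0.10, Bid 1417045_at from -0.35 to 0.018 and Bcl2l1 1426050_at from -0.0014 to 0.11. With the mean of the probe sets of a gene, Bcl2l11 had 0.20 and Bid 0.095. Without WT replicates 1 and 2, chosen after seeing the data, Bak1 1425716_s_at had 0.26, Bcl2l1 1426050_at -0.046, Bcl2l11 1456005_a_at -0.12, Bid 1447873_x_at -0.038 and Mcl1 1416881_at 0.047. Member probe sets whose groups do not overlap numbered 2 of 9 (22.2%, against 14.8% of all genes) with the brightest probe set per gene. They numbered 1 of 9 (11.1%, against 14.7%) with means and 17 (58.6%, against 47.5% of all probe sets) without WT replicates 1 and 2. They numbered 8 to 15 as single arrays were left out. There were 15 (51.7%) without N1-IC replicate 3, against 26.3% of all probe sets, and 15 (51.7%) without WT replicate 3, against 32.3%. Without WT replicate 1 there were 11 (37.9%), against 23.0%, and without WT replicate 2 there were 10 (34.5%), against 22.9%. The numbers were 9 (31%) without N1-IC replicate 1, against 23.8%, and 8 (27.6%) without N1-IC replicate 2, against 22.7%. With all arrays there were 7 (24.1%), against 14.4% of all probe sets. Fewer arrays make such a separation easier by construction. Over all probe sets 4 passed, against 7 with a mean-variance trend, 1 with the brightest probe set per gene, 2 without WT replicates 1 and 2, 10 at an adjusted p under 0.1, 3470 at an unadjusted p under 0.05, and 3 to 8 as single arrays were left out, 8 of them without WT replicate 2; the cause of these changes was not tested.

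With the replicate number as a block 2 probe sets passed, 0 of them of a member. Deviations of same-numbered arrays correlated at 0.013, 0.040 and -0.077, which shows no sign of pairing by number. A pairing that touched only part of the genes could go unseen in these values.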
